A study of Mus musculus with 4 samples.

Results

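The BCL-2 family decides whether the outer membrane of mitochondria stays closed, and 10 of its genes were examined in sorted mouse regulatory T cells (Treg). The genes were 3 anti-apoptotic members (Bcl2, Bcl2l1 and Mcl1), 2 effectors (Bax and Bak1) and 5 BH3-only members (Bcl2l11, Bid, Pmaip1, Bbc3 and Bad). The list was chosen with earlier results of these data known. Its members were matched to probe sets by gene symbol alone, each represented by its brightest probe set carrying exactly 1 symbol. Such a probe set was present for 9 of the 10, and all 9 were among the 12114 genes tested, of 22180 genes with a probe set of 1 symbol. Bax had none, so its expression is not analysed here and Bak1 stands alone for the effectors.

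The cells came from mice of the strain labelled Foxp3Luci-DTR-4(B6 Albino), which both groups shared. One group had received an antibody that stimulates death receptor 3 (DR3, encoded by Tnfrsf25) and the other an isotype control antibody, in both cases into the peritoneum. CD4+ cells positive for Foxp3 and for green fluorescence were sorted on day 4, and their total RNA was hybridised to Affymetrix arrays, 2 arrays per group. Age, sex, antibody dose and any pooling of animals are not named in the labels. The labels also do not call the replicates separate mice, so the p-values rest on array-to-array spread that may be technical.

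Anti-apoptotic proteins hold the effectors and the BH3-only proteins in check. BH3-only proteins are the sensors: they bind and block the anti-apoptotic proteins, and some also activate BAX and BAK, which then open the outer membrane and release cytochrome c. In Treg, signals from interleukin 2 and related cytokines support survival through Bcl2 and Mcl1, and the BH3-only protein BIM, the product of Bcl2l11, is a main brake on Treg number.

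The labelled cell type was checked by its markers. All 8 Treg and T cell markers examined lay above the array medians, among them Foxp3 at intensities of 3891 and 3825 on the anti-DR3 arrays, against 3805 and 3581 on the control arrays. Foxp3 differed by 0.06 ± 0.081 (SE) on the log2 scale (adjusted p = 0.671, limma). Among the 8 markers, Ikzf2 was higher with anti-DR3 (0.58 ± 0.077, adjusted p = 0.0193, limma) and Il2ra lower (-0.49 ± 0.095, adjusted p = 0.0441, limma). These calls were lost in 6 and 7 of the alternative fits, and the other 6 markers did not pass. Tnfrsf25, which is not a marker here, differed by 0.17 ± 0.093 (adjusted p = 0.305, limma). Over all genes tested 722 lay under an adjusted p of 0.05, of which 544 were higher and 178 lower with anti-DR3. This split became 348 higher and 243 lower with centring, where the log2 median over tested genes was subtracted array by array. All differences below are log2 values with anti-DR3 on top and control antibody subtracted, each from 2 arrays per group, with the standard error (SE) of the limma fit.

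After anti-DR3, Bcl2 fell and Bak1 rose, and the other 7 measured members did not pass the test. Bcl2 was at 58.4% of its control level and Bak1 at 149.4%. The background share of genes past the threshold was 5.96% in either direction, 4.49% higher and 1.47% lower, against 2 of 9 members, 1 in each direction. The members' median difference was -0.07, against 0.01 over all genes tested. The groups did not overlap for 7 of the 9 members, 3 higher and 4 lower, where this held for 56.1% of all genes tested, 31.6% higher and 24.6% lower.

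**Figure D1:**
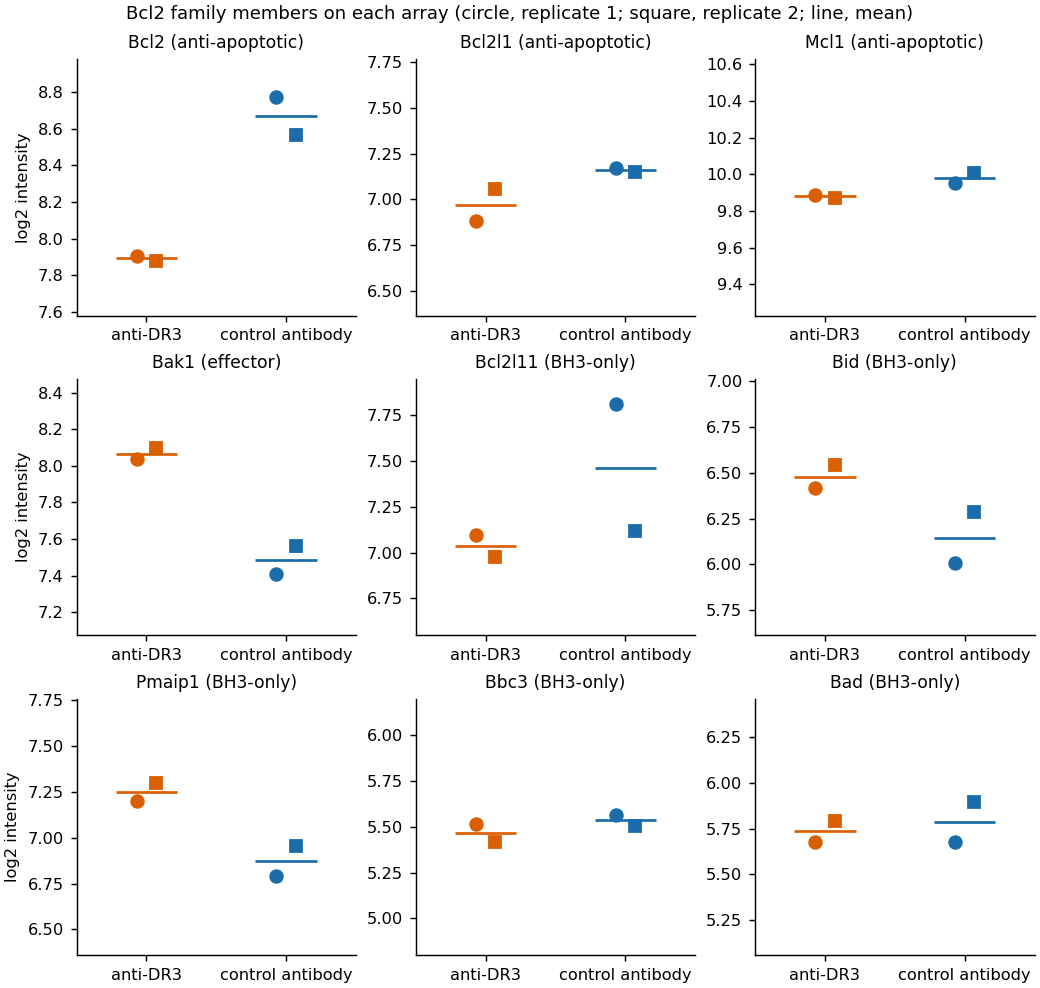
Log2 intensity of 9 Bcl2 family members (vertical axis, spanning the same number of log2 units in every panel) on the arrays of anti-DR3 (left, orange) and control antibody (right, blue), with a line at each group's mean of 2 arrays. Bcl2 sits near 7.89 on both anti-DR3 arrays and near 8.67 in control, Bak1 shows the opposite order, and the 2 control arrays of Bcl2l11 lie far apart.

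The start sites of 9 members, all but Pmaip1 and so including Bax, were read from RefSeq promoter windows (GRCm38.p6), each from 250 bases before to 50 after a start site, 15 windows in all. They were searched on both strands for the NF-kappaB letters (GGG, any 5 bases, then CC; a factor that DR3 activates), TTCNNNGAA (STAT, used by interleukin 2 signalling, and the same on both strands) and GTAAACA (FOXO). Windows and matches may overlap one another. The NF-kappaB letters were in 13 of the 15 windows and in 50.8% of all 32851 windows, and the member windows were 49.3% to 78.0% G or C. The STAT letters were in 0 of the 15 and in 8.30% of all windows. The FOXO letters were in 1 window each of Bcl2l11 and Bbc3 and in 3.65% of all windows. The 250 bases before the start are shown for Bcl2 and Bak1, the members that passed, with the NF-kappaB letters in capitals, and for Bcl2l11, with the FOXO letters in capitals, all 5′ to 3′ on the strand of the gene. They lie at chr1:106714291-106714540 (minus strand), chr17:27028628-27028877 (minus strand) and chr2:128125788-128126037 (plus strand).
Bcl2: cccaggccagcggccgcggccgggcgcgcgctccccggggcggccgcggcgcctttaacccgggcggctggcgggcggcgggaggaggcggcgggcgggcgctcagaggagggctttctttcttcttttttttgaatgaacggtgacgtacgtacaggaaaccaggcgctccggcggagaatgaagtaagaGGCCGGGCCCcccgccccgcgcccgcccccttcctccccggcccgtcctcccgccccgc
Bak1: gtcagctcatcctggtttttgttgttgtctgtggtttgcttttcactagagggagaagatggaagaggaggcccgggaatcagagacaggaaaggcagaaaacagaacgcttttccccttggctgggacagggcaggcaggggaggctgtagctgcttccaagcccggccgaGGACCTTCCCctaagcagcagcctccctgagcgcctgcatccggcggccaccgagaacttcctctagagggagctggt
Bcl2l11: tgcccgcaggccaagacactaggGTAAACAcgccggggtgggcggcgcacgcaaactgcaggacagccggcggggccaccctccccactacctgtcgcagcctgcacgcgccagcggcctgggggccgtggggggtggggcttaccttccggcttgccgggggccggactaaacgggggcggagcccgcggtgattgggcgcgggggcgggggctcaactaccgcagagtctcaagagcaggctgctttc
The Bcl2 and Bak1 stretches each hold 1 match to the NF-kappaB letters, beginning 59 and 78 bases before the start site. The Bcl2l11 stretch holds 5 such matches, counted by strand, which are not in capitals. All 9 members with a window held these letters, and Bbc3, which did not pass, had 10 matches in 1 window. The letters thus do not set apart the members that passed.

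Among the anti-apoptotic members, Bcl2, which protects resting lymphocytes and gives the family its name, showed the largest difference. Its intensities were 239.7 and 236 on the anti-DR3 arrays, against 438 and 378 on the control arrays. Both anti-DR3 arrays lay well below both control arrays, and the gap between the nearest arrays of the 2 groups was 0.66 on the log2 scale. Bcl2 fell by 0.78 ± 0.098 (95% interval -1.02 to -0.54, adjusted p = 0.0163, limma), or 1.71-fold, and stood at rank 167 of the 12114 genes by the size of the moderated statistic. A second, dimmer Bcl2 probe set did not share this difference: it gave 33.9 and 36.4 on the anti-DR3 arrays, against 42.1 and 33.6 on the control arrays, a difference of -0.10 with overlapping groups. With the 2 probe sets averaged, the Bcl2 difference was -0.44 and no longer passed (adjusted p = 0.0743, limma).

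The Bcl2 call depended on which arrays were kept. It held without control antibody replicate 2 (adjusted p = 0.0359, limma) and was lost without anti-DR3 replicate 1 (0.0849), anti-DR3 replicate 2 (0.122) or control antibody replicate 1 (0.0598), while the difference stayed between -0.88 and -0.67. In RNA of sorted cells, fewer cells with high Bcl2 and less Bcl2 RNA per cell cannot be told apart.

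The other 2 anti-apoptotic members differed less. Bcl2l1, which encodes BCL-XL, gave 118 and 133 on the anti-DR3 arrays, against 144 and 142 on the control arrays. The anti-DR3 arrays were the lower ones, but the gap of 0.17 between them on the log2 scale was wider than the 0.09 that separated the groups. The difference was -0.19 ± 0.092 (95% interval -0.41 to 0.04, adjusted p = 0.259, limma). Mcl1, which encodes a short-lived protein that Treg depend on, was bright, with 947 and 937 on the anti-DR3 arrays, against 989.8 and 1028 on the control arrays. These groups did not overlap either, but the difference was small at -0.10 ± 0.078 (95% interval -0.29 to 0.09, adjusted p = 0.476, limma), and a dimmer second probe set gave 0.04. At their brightest probe sets all 3 anti-apoptotic members were lower on both anti-DR3 arrays than on either control array, as were 24.6% of all genes. Only Bcl2 passed. At the second probe sets of Bcl2 and Mcl1, both of them near the array medians, the groups overlapped.

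Bcl2 was lower relative to 3 other members on the same array, a ratio in which any array-wide scale cancels. The 3 ratios reuse the Bcl2 values given above, so they restate its fall and are not separate evidence. The log2 ratio of Mcl1 over Bcl2 was 0.68 higher after anti-DR3 and that of Bcl2l1 over Bcl2 0.59 higher, with no overlap between groups for either (exact permutation test, two-sided, p = 0.333 each, the smallest p that 2 arrays against 2 allow). Bcl2l11 over Bcl2 was 0.35 higher, also without overlap (p = 0.333 in the same exact test). With 1 array left out, the Bcl2l11 over Bcl2 change ran from 0.11 without control antibody replicate 2 to 0.59 without control antibody replicate 1. Averaging each gene's probe sets, which takes in the dim second probe set of Bcl2, brought the 3 changes to 0.41, 0.25 and 0.0082. Of the 6 ratios compared in all, the groups overlapped for 2: Bbc3 over Bcl2l1 was 0.12 higher after anti-DR3 and Bcl2l1 over Bcl2l11 0.24 higher (exact permutation test, two-sided, p = 0.667 each). How often ratios of other gene pairs separate the groups was not computed. Among single genes the groups did not overlap for 56.1%, so this count of ratios is no result about the family.

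Bak1, whose product forms pores in the outer membrane, was the member that rose. Its intensities were 262 and 273 on the anti-DR3 arrays, against 169.7 and 189 on the control arrays, so the 2 groups were separated by 0.47 on the log2 scale. The rise was 0.58 ± 0.090 (95% interval 0.36 to 0.80, adjusted p = 0.0272, limma), or 1.49-fold, at rank 317. It held without control antibody replicate 2 (adjusted p = 0.0488, limma) and was lost without anti-DR3 replicate 1 (0.113), anti-DR3 replicate 2 (0.170) or control antibody replicate 1 (0.0951), with the difference between 0.50 and 0.66.

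**Figure D2:**
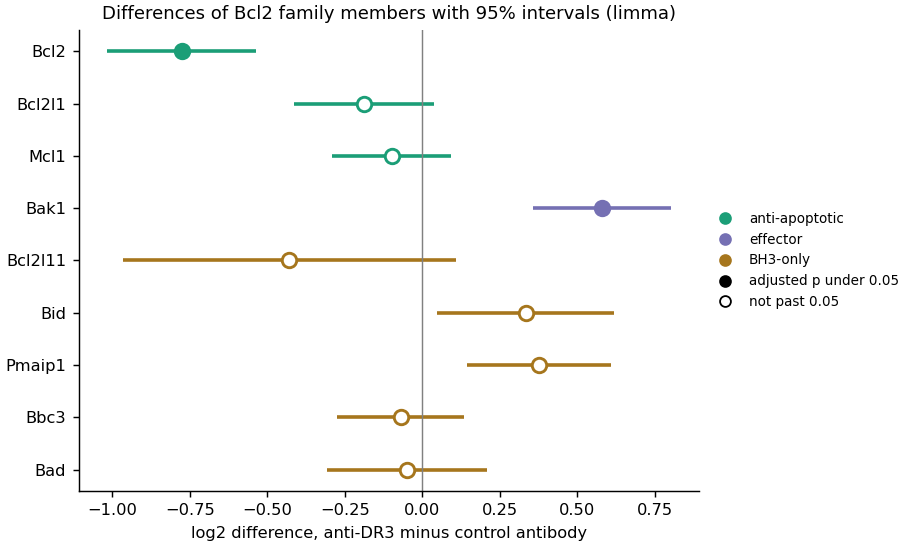
Log2 difference of each member between anti-DR3 and control antibody (horizontal axis, positive where anti-DR3 is higher), with its 95% interval from limma, coloured by role, and with filled points for an adjusted p under 0.05. Bcl2 at -0.78 and Bak1 at 0.58 carry the filled points, the intervals of Bid and Pmaip1 lie above 0 without passing the adjustment, and Bcl2l11 has the widest interval.

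Of the 5 BH3-only members 0 passed in limma, and 2 lay under an unadjusted p of 0.05, both higher, where 26.1% of all genes did. Pmaip1, which encodes NOXA, a target of p53 whose product binds MCL-1, gave 147 and 157 on the anti-DR3 arrays, against 111 and 124 on the control arrays. Its groups did not overlap, and the difference was 0.38 ± 0.094 (95% interval 0.15 to 0.61, adjusted p = 0.0745, limma). Pmaip1 passed under a stricter filter on dim genes (adjusted p = 0.0432) and with a trended robust prior (0.0420), both in limma, and its adjusted p ran up to 0.303 over the alternatives. The log2 ratio of Pmaip1 over Mcl1 was 0.48 higher after anti-DR3, without overlap (p = 0.333, exact permutation test).

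Bid is cut by caspase 8 and so carries death receptor signals to mitochondria. Its intensities were 85.5 and 93.2 on the anti-DR3 arrays, against 64.4 and 78.0 on the control arrays, with the higher control array close to the lower anti-DR3 array. The difference of 0.33 ± 0.12 (95% interval 0.05 to 0.62) did not pass (adjusted p = 0.145, limma), and it ran from 0.19 to 0.47 with 1 array left out.

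Bcl2l11 had no settled difference, since its 2 control arrays lay far apart. It gave 137 and 126 after anti-DR3, which lay close together, and 224 and 139 after control antibody. The gap of 0.69 between the control arrays on the log2 scale was matched or exceeded by 0.454% of all genes tested. The difference was -0.43 ± 0.22 (95% interval -0.96 to 0.11, adjusted p = 0.278, limma). Without control antibody replicate 1 it was -0.08 (adjusted p = 0.692), and without control antibody replicate 2 it was -0.78 and passed (adjusted p = 0.0431), both in limma.

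Bbc3, which encodes PUMA, and Bad, whose activity is set by phosphorylation, lay close to the array medians and their groups overlapped. Bbc3 gave 45.7 and 42.7 on the anti-DR3 arrays, against 47.3 and 45.4 on the control arrays, a difference of -0.07 ± 0.083 (95% interval -0.27 to 0.13, adjusted p = 0.648, limma). Bad gave 51.2 and 55.5 on the anti-DR3 arrays, against 51.1 and 59.5 on the control arrays, a difference of -0.05 ± 0.10 (95% interval -0.31 to 0.21, adjusted p = 0.816, limma). The intervals leave out a change in measured intensity as large as that of Bcl2 for either gene. So near the array medians background can shrink a difference, so a change of that size in their RNA is not excluded. The sign of Bad turned when anti-DR3 replicate 1 or control antibody replicate 2 was left out (0.0087 and 0.061).

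Control antibody replicate 2 lay nearer the anti-DR3 mean than control antibody replicate 1 for 7 of the 9 members, where this was so for 50.0% of all genes tested. The control arrays also lay farther apart than the anti-DR3 arrays for 7 of the 9 (55.1% of all genes). Leaving out control antibody replicate 1 therefore brought Bcl2, Bcl2l11, Bak1, Bid and Pmaip1 nearer to 0, and leaving out control antibody replicate 2 took each of them farther from 0.

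**Figure D3:**
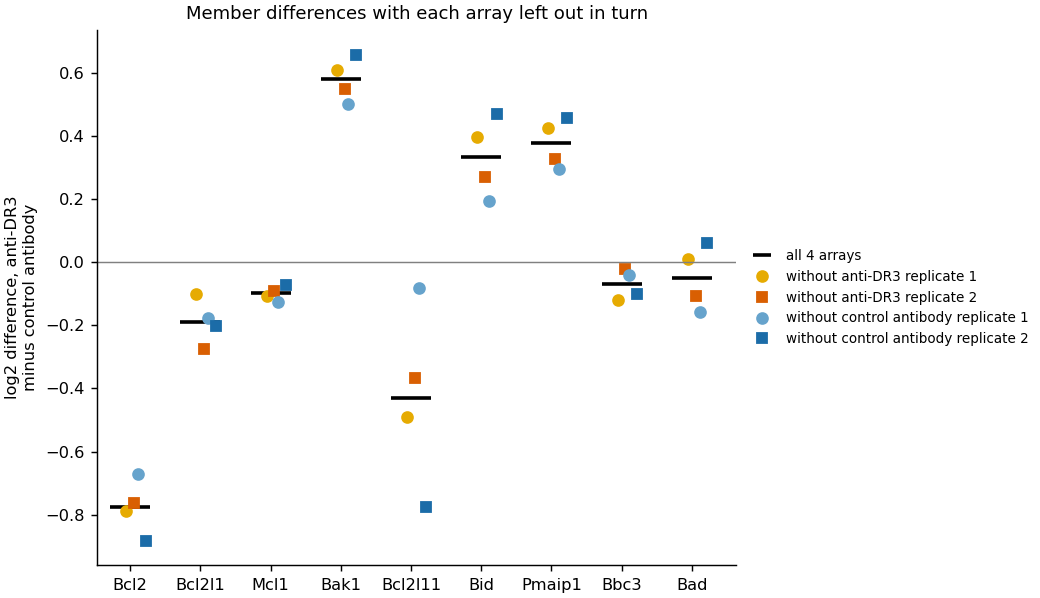
Log2 difference of each member (vertical axis, anti-DR3 minus control antibody) with all 4 arrays (black bar) and with each array left out (coloured points). Bcl2 stays between -0.88 and -0.67 and Bak1 between 0.50 and 0.66, while Bcl2l11 spans -0.78 to -0.08 and Bad crosses 0.

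Other relatives of the family showed no call. Of 16 listed genes 12 had a probe set of 1 symbol, 6 of them were bright enough to test, and 0 passed in limma. Among the 6, 1 had an unadjusted p below 0.05, where 26.1% of all genes did. That gene was Bcl2a1a, which encodes A1, an anti-apoptotic protein induced by NF-kappaB, with 88.1 and 104.9 on the anti-DR3 arrays, against 83.7 and 71.4 on the control arrays (0.31 ± 0.12, adjusted p = 0.182, limma). A1 has near-identical gene copies, so its value may mix them; the copy Bcl2a1c differed by 0.26 ± 0.16 (adjusted p = 0.372, limma). Bcl2l13, a mitophagy receptor, differed by 0.26 (adjusted p = 0.222), Bok, an effector-like relative, by -0.21 (0.222), the BH3-only gene Bik by 0.09 (0.708) and Bcl2l2, which encodes BCL-W, by -0.04 (0.896), all in limma.

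Downstream of the membrane, Apaf1 rose. It encodes the scaffold of the apoptosome, which cytochrome c assembles to activate caspase 9, and it gave 253 and 261 on the anti-DR3 arrays, against 144 and 176 on the control arrays. The rise was 0.69 ± 0.11 (adjusted p = 0.0298, limma), and among 15 tested genes of mitochondrial death execution it made 1 rise (4.49% of all genes rose), beside 0 falls and a list median of 0.13. The call was lost in 5 of the alternatives, among them those without anti-DR3 replicate 1 (adjusted p = 0.124), anti-DR3 replicate 2 (0.171) or control antibody replicate 1 (0.0839), all in limma. Vdac2, an outer membrane channel that binds BAK, was 0.36 ± 0.076 higher without passing (adjusted p = 0.0519, limma), and was named after its values were seen. Casp9 and Cycs, the cytochrome c gene, differed by -0.0019 and 0.06 (adjusted p = 0.994 and 0.678, limma), with -0.075 to -0.0046 at other probe sets of Cycs, and were also named after their values were seen. Of 6 caspase inhibitors 0 passed in limma, 2 lay under an unadjusted p of 0.05 (26.1% of all genes did), and Birc2, which encodes cIAP1, had the largest statistic (0.28 ± 0.088, adjusted p = 0.121, limma).

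In the death receptor pathway 2 of 11 tested genes rose and 0 fell, where 4.49% of all genes rose and 1.47% fell. The list median was 0.16. Ripk3, the kinase of necroptosis, rose by 0.65 ± 0.099 (adjusted p = 0.0268, limma), with 160.0 and 161 on the anti-DR3 arrays, against 110.3 and 94.9 on the control arrays. Tnfsf10, the death ligand TRAIL, rose by 0.48 ± 0.087 (adjusted p = 0.0373, limma), with 172 and 166 on the anti-DR3 arrays, against 115 and 127 on the control arrays. These calls were lost in 6 and 9 of the alternatives, in each case including every fit with 1 array left out. Fasl, the ligand of FAS, had the largest difference of the list without passing, -0.72 ± 0.19 (adjusted p = 0.0776, limma), and was named after its values were seen. It gave 70.1 and 63.8 on the anti-DR3 arrays, against 134 and 90.5 on the control arrays, which lay far apart.

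**Figure D4:**
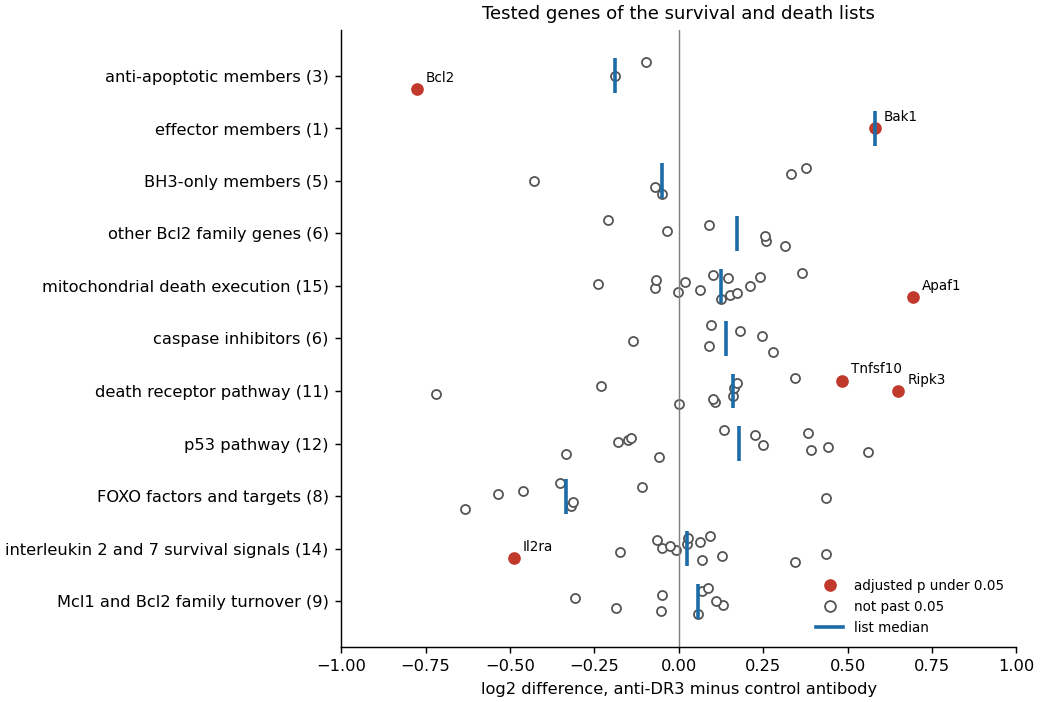
Log2 difference (horizontal axis, anti-DR3 minus control antibody) of every tested gene of 11 lists, with the number tested in parentheses, filled red points for an adjusted p under 0.05 in limma and a blue bar at each list's median. The death receptor list holds 2 calls (Ripk3 and Tnfsf10), and Bcl2, Bak1, Apaf1 and Il2ra are each the only call of their list. The FOXO list has the lowest median, -0.34.

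The lists of p53 and FOXO pathway genes gave no call. They hold targets of these pathways beside their regulators, so they do not measure control of the family. Trp53 itself had no probe set of 1 symbol. Of 12 tested p53 pathway genes 0 passed in limma, while 7 lay under an unadjusted p of 0.05, 6 higher and 1 lower, where 26.1% of all genes did. Cdkn1a, the cell cycle inhibitor p21, had the largest statistic at 0.39 ± 0.084 (adjusted p = 0.0534, limma), and passed under the stricter filter and the trended robust prior (adjusted p = 0.0286 and 0.0228). Of 8 tested FOXO factors and their targets 0 passed in limma. Under an unadjusted p of 0.05 lay 7, 6 of them lower, where 26.1% of all genes did. The list median was -0.34. FOXO factors can switch on Bcl2l11 and Bbc3 in lymphocytes, and Foxo1 and Foxo3 themselves differed by -0.32 and -0.31 (adjusted p = 0.0838 and 0.136, limma), with -0.13 at a second probe set of Foxo1; both were named after their values were seen. Il7r, the interleukin 7 receptor chain, went against the list at 0.44 ± 0.091 (adjusted p = 0.0519, limma).

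Of 14 tested genes of interleukin 2 and 7 signalling, 1 fell and 0 rose, where 1.47% of all genes fell and 4.49% rose. The median was 0.03. Il2ra, the chain CD25 through which Treg sense interleukin 2, fell by 0.49 ± 0.095 (adjusted p = 0.0441, limma), a call lost in 7 alternatives, including every fit with 1 array left out. Of 9 tested genes whose products modify, degrade or bind family proteins 0 passed in limma. At an unadjusted p below 0.05 stood 1, where 26.1% of all genes did. It was Trim17, a ubiquitin ligase for MCL-1 (-0.31 ± 0.090, adjusted p = 0.103, limma).

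State genes moved with Bcl2 and Bak1. Over all genes tested 4.49% rose and 1.47% fell. Of 16 tested effector Treg genes 13 rose and 0 fell (median 0.83), led by S100a4, Lgals1, Itgae and Klrg1. Of 15 tested proliferation genes 10 rose and 0 fell (median 0.88), led by Ccna2, Mki67, Ccnb2 and Top2a, and of 11 tested resting Treg genes 4 fell and 0 rose (median -0.46), namely Bach2, Foxp1, Il6ra and Satb1. Without anti-DR3 replicate 2 no gene at all kept a call in limma (0 of 12114, 1967 under an unadjusted p of 0.05), these included. The calls of Foxp1 and Il6ra were lost in every fit with 1 array left out, that of Il6ra also with the replicate block (adjusted p = 0.0537, limma), and those of Bach2 and Satb1 in every such fit but the one without control antibody replicate 2. Il7r was the tested resting Treg gene that went the other way (0.44 ± 0.091, adjusted p = 0.0519, limma). Il7r, Klf2, Ccr7 and S1pr1 are in both the resting Treg and the FOXO lists, so the medians of these 2 lists are not separate results. The part of these state genes in the differences of Bcl2 and Bak1 was not tested. Markers of other cells also moved. Of 4 bright B cell markers Ighm, H2-Aa and H2-Ab1 rose, while Cd79a, Ms4a1, Pax5, Ebf1 and Blk were dim and Cd79b differed by 0.18 (adjusted p = 0.379, limma). Summed intensities over 9 markers were 4418 to 4627 after anti-DR3 and 2890 to 3106 after control antibody. Most of each sum was Ighm alone, with 3990 and 4215 on the anti-DR3 arrays, against 2539 and 2771 on the control arrays. A second bright Ighm probe set gave 1.18, and its dimmer ones -0.36 to 0.098. Cd8b1, Csf1r and Rora, single members of the CD8 T cell, monocyte and type 2 innate lymphoid lists, rose as well. Cd8a, the other CD8 marker, was dim with overlapping groups (39.8 and 31.0 on the anti-DR3 arrays, against 32.7 and 29.7 on the control arrays). Rora is also among the 13 effector Treg genes that rose. The other 5 bright monocyte genes did not pass: Itgam, Lyz2 and Cd68 differed by 0.47, 0.43 and 0.11 (adjusted p = 0.0766, 0.296 and 0.508, limma). Fcgr3 differed by -0.30 (adjusted p = 0.109, limma) and Ly6c2 by -0.09 (0.751). Of the dim monocyte genes, Adgre1 was lower without overlap (-0.34) and Cd14 differed by 0.22 with overlapping groups. In the innate lymphoid list Il17rb, Gata3, Arg1 and Il13 differed by 0.67, 0.24, 0.17 and -0.09 (adjusted p = 0.0833, 0.147, 0.251 and 0.699, limma). The genes that did not pass, and the dim Cd8a, Adgre1 and Cd14, were named after their values were seen. The calls of H2-Aa, H2-Ab1, Cd8b1, Csf1r and Rora were lost in every fit with 1 array left out, and that of Ighm in every such fit but the one without control antibody replicate 2. With the replicate block those of H2-Ab1, Cd8b1 and Csf1r were lost too (adjusted p = 0.0557, 0.0578 and 0.0598, limma). The part of these markers in the family's differences was not tested.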

How the data were processed

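RNA of sorted Treg was measured on 4 arrays, 2 per group. The authors deposited 1 linear intensity per probe set, made by RMA, per the submitters' processing notes; for software, version and genome build nothing is given in the sources used here. RMA normalizes arrays to a shared distribution, which can hide a change common to all genes. All values lay above 0 and reached far past a log range, so they were taken as linear, and log2 was computed first. For arrays, their number limits the precision.

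Of 41345 probe sets, 23521 had 1 gene symbol, 1814 several and 16010 none listed. Each gene was represented by its brightest probe set and tested if above the array median of all probe sets on at least 2 of the 4 arrays, which set aside 10066 genes as dim. The test was limma (version 3.58.1, in R 4.3.3), two-sided, by lmFit and eBayes, adjusted by Benjamini-Hochberg across the 12114 genes at 0.05, with 2 residual degrees of freedom and 3.94 from the prior. Ratios of 2 members were compared with an exact permutation test over arrays, which cannot go below p = 0.333. The ratio planned with Bax was not computed.

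The members and lists were chosen with earlier results of these data known. Named genes were all members, Tnfrsf25, Foxp3, tested family relatives and, of each other list, up to 4 genes past the threshold by moderated statistic, or the 1 with the largest statistic where none passed. Entrez identifiers of all 9 measured members matched the RefSeq gene table. The code was tested on simulated data. Alternatives covered the replicate block, each array left out, the filter, normalization, the variance model, array weights and the choice of probe set. Figures were drawn with matplotlib 3.10.9.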

Additional observations from a re-analysis of the deposited data

How the results depend on the processing

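Bcl2 stayed lower and Bak1 higher after anti-DR3 in all 14 alternatives, and limma called them in 8 and 9. With 1 array left out, which leaves 1 residual degree of freedom, limma called 0 to 312 genes (0 to 245 higher, 0 to 67 lower) and 0 to 3 members (0 to 1 higher, 0 to 2 lower); the fit with 0 genes, without anti-DR3 replicate 2, had 1967 below 0.05 before adjustment. Without any filter (22180 genes tested) the call went to 14 genes, all 14 of them higher and 0 lower, and to 0 members in either direction (3573 genes and 4 members unadjusted). The ordinary linear model gave 0 genes and 0 members in either direction (2087 and 2 unadjusted), which follows from dropping the shared prior. The stricter filter gave 1157 genes (860 higher, 297 lower) and the trended robust prior 1444 (1082 and 362), each with 2 members higher, Bak1 and Pmaip1; the stricter filter left out 2 members. Centring gave 348 genes higher. The mean of all probe sets gave 1 member, Bak1, and 0 lower. For the other counts the cause was not tested. Leaving out 1 array turned the sign of some differences that had not passed: they ran from -0.16 to 0.061 for Bad, -0.19 to 0.12 for Bcl2l2, -0.073 to 0.25 for Bik, -0.014 to 0.030 for Cxcr2 and -0.11 to 0.014 for Pecam1. The change in Bbc3 over Bcl2l1 ran from -0.018 to 0.26 and that in Bcl2l1 over Bcl2l11 from -0.096 to 0.58. Cxcr2 also turned with centring (-0.053). The replicate block gave 563 genes (430 higher, 133 lower) and 2 members, Bcl2 and Bak1 (adjusted p = 0.0293 and 0.0379, limma); the replicate differences of the 2 groups correlated at 0.051 over genes, and 2 pairs cannot show whether the numbers pair the arrays. Over the named genes 512 values stayed as they were in direction and call, 133 lost a call, 8 gained one and 9 turned sign. Genes near the array medians, Bbc3 and Bad among them, are limited by signal over background.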

Other observations

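Of the family relatives too dim to test, Bmf, a BH3-only gene, had 29.0 and 28.6 on the anti-DR3 arrays, against 35.7 and 36.5 on the control arrays, below the array median on all 4 arrays. Bcl2l14 had 24.3 and 24.3 on the anti-DR3 arrays, against 21.0 and 21.3 on the control arrays. Of the marker lists without a call in limma, the largest statistics belonged to Tbx21 (0.22 ± 0.15), Bst2 (0.33 ± 0.14), Cxcr2 (0.0076 ± 0.078) and Pecam1 (-0.05 ± 0.085), of natural killer, dendritic, neutrophil and stromal cells.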
